A study of Mus musculus with 4 samples.

Results

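Border-associated macrophages live in the meninges, around blood vessels and in the choroid plexus, the surfaces at which the brain meets blood and cerebrospinal fluid. They are known for taking up proteins, lipids and debris from these fluids through scavenger receptors, and they differ in origin and gene expression from microglia, the macrophages of the brain tissue itself. The 9 genes described here, Mrc1, Cd163, Lyve1, Pf4, F13a1, Cbr2, Folr2, Ms4a7 and Stab1, are commonly used to mark these cells. They were chosen by name from the 32285 genes of the files, and all 9 were found.

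Gene expression was measured on brain slices by Visium, an array of barcoded spots that captures polyadenylated RNA from the tissue lying over each spot and counts unique molecular identifiers (UMIs), 1 per captured molecule. Photothrombotic (PT) injury, in which light on an injected dye clots the vessels of a patch of cortex, was studied in 8 mice with 1 slice each: 1 wild-type mouse at rest, 1 wild-type mouse at 2 days post-injury (dpi), 2 wild-type mice at 7 dpi, 2 wild-type mice at 21 dpi and 2 Cthrc1(creER); R26(DTA) mice at 21 dpi, here called deleter mice. In the deleter mice an inducible Cre under control of Cthrc1, a gene of injury fibroblasts, switches on diphtheria toxin A, and the series notes that no deletion could be detected. Mice were adults of both sexes, 7 to 21 weeks old unless the study states otherwise. Each of the 4 capture areas held 2 slices, and the slices of 7 dpi, of 21 dpi wild type and of 21 dpi deleter mice each filled an area of their own. In the area shared by rest and 2 dpi, the smaller connected piece of tissue was taken as rest and the larger as 2 dpi.

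The slices held 827 to 1726 spots and 11332780 to 23677298 UMIs. The median was 12447 to 16158 UMIs per spot in 7 slices and 2634 in the 2 dpi slice, in which 21.7% of spots held under 1000 UMIs. Between 7 dpi and 21 dpi wild type, time, capture area and sex-linked genes moved together and cannot be told apart. The X-inactivation gene Xist had 1597 and 1281 UMIs in the 7 dpi slices but 4 and 1 in those of 21 dpi wild type. The deleter slices differed from each other, with 1033 Xist UMIs in slice 1 and 19 in slice 2. A spot covers several cells of different types, and fewer cells of a type cannot be told apart from less RNA per cell. Levels are given as UMIs per 10000 UMIs of the same spots. Edge spots had at least 1 neighbouring array position without tissue, interior spots had none, fibrotic spots held at least 5 UMIs of the collagen gene Col1a1 per 10000, and Col1a1-free spots held 0.

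The 9 genes lie on 8 chromosomes and share no cluster. In mouse build GRCm38 (mm10) with GENCODE M21 annotation, the whole genes span chr2:14229392-14332057 (Mrc1), chr6:124304656-124330527 (Cd163), chr7:110850607-110863239 (Lyve1), chr5:90772435-90773383 (Pf4), chr13:36867178-37050244 (F13a1), chr11:120729489-120732114 (Cbr2), chr7:101839988-101857194 (Folr2), chr19:11321039-11336146 (Ms4a7) and chr14:31139013-31168641 (Stab1). The 250 bases before the RefSeq transcription start of the 4 genes with the largest edge difference are printed here, since these genes rose together at the edge. For Cbr2 and Mrc1 the last 93 and 22 of these bases lie inside the GENCODE gene span given above. Sequences are from RefSeq, GRCm38.p6, and run 5′ to 3′ on the gene's strand. Capitals mark matches, on either strand, to GAGGAAGT (a site of the myeloid factor PU.1), to its core GGAAGT alone, to the MAF recognition core TGCTGA or to the MITF and TFE motif CATGTG.
Cbr2 (chr11:120732022-120732271, minus strand): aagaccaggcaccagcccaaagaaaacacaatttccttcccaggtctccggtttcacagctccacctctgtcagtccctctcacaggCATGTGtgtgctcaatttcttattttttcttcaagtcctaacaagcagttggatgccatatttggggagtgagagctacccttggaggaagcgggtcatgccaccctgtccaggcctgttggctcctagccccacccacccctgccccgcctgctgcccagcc
Mrc1 (chr2:14229164-14229413, plus strand): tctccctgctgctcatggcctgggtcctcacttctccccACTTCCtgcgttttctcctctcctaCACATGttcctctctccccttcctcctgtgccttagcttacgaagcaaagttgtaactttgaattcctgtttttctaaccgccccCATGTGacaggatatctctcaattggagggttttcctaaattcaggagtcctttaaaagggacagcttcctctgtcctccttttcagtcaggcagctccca
F13a1 (chr13:37050245-37050494, minus strand): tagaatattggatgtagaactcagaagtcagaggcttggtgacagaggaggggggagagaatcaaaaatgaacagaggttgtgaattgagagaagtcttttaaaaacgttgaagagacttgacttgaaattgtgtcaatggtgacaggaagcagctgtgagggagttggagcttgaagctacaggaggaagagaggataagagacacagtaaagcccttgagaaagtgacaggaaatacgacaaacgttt
Pf4 (chr5:90772185-90772434, plus strand): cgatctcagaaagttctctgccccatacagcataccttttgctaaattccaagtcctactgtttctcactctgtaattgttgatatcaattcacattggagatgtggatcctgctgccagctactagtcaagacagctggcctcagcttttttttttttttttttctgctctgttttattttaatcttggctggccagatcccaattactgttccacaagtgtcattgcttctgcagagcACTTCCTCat

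Promoter sequence was found for 8 of the 9 genes, all but Lyve1, with 11 start sites in all. In windows from 250 bases before to 50 bases after a start, GAGGAAGT stood in 2 of these 11 promoters (F13a1 and Pf4), against 3.2% of all 32851 mouse promoters. GGAAGT, which every GAGGAAGT contains, stood in 5 of 11 against 23.8% of all promoters, TGCTGA in 4 of 11 against 19.5%, and CATGTG in 5 of 11 against 14.2%. Both F13a1 matches lie in the window of a second start site of that gene, which is not printed. These are counts of letters, not of bound sites.

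All 9 genes were sparse. Over the 8 slices they gave 6868 UMIs for Stab1, 4233 for Ms4a7, 2062 for Pf4, 1736 for Mrc1, 1098 for Folr2, 1075 for F13a1, 445 for Cbr2, 142 for Lyve1 and 132 for Cd163. Summed, they gave 0.152 UMIs per 10000 at rest, 1.14 at 2 dpi, 1.88 and 3.07 in the pair of 7 dpi slices, 1.37 and 1.69 in the wild-type pair of 21 dpi, and 1.43 and 1.24 in the deleter pair. The rest slice was the lowest and the 7 dpi slices the highest. Stab1 and Ms4a7 made up 35.1% of this sum at rest and 37.9% at 2 dpi but 61.3% to 69.4% of it in the later slices, so each gene is given on its own.

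**Figure D1:**
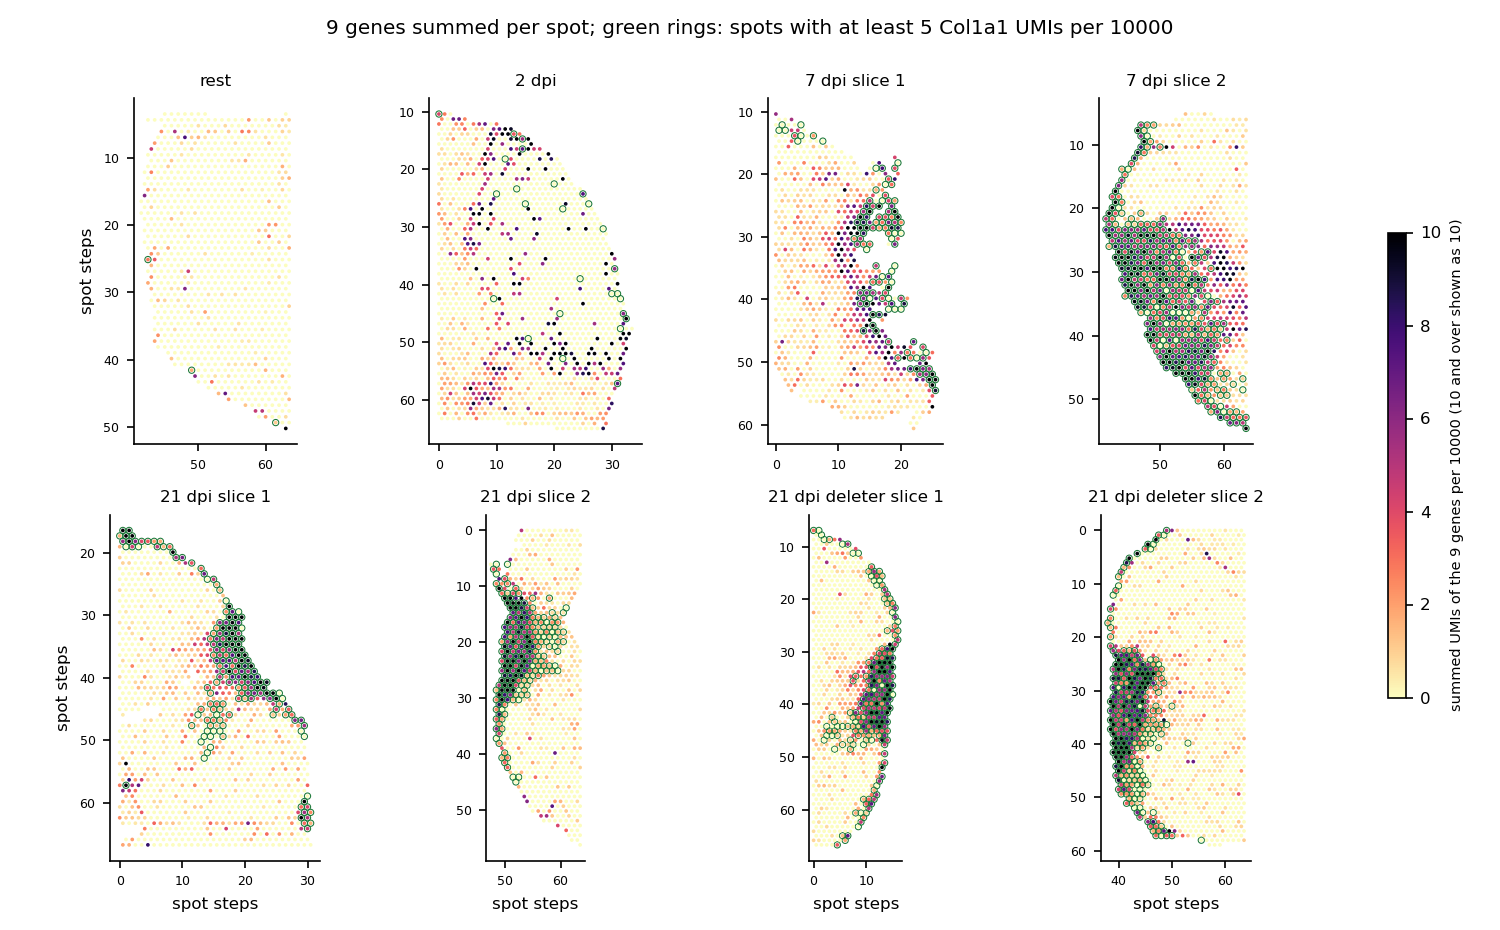
Summed UMIs of the 9 genes per 10000 UMIs in each spot (colour, values of 10 and over drawn as 10), by position in steps between neighbouring spots, with fibrotic spots ringed in green. At rest few spots are coloured, at 2 dpi dark spots are scattered over the slice with few fibrotic spots (26), and at 7 and 21 dpi dark spots gather in and next to the 112 to 392 fibrotic spots of each slice. In a spot with under 1000 UMIs, 1 UMI of the 9 genes is drawn at the darkest value. At 2 dpi 21.7% of spots were that shallow, so the scatter of dark spots there also reflects depth.

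The first comparison asked whether the genes were higher at the edge of the tissue, which by its definition can lie at inner gaps as well as at the outer surface. In 21 dpi slice 1 the choroid plexus genes summed to 616 UMIs per 10000 at the edge and 74.9 in the interior. All 7 of the genes with enough counts to be tested were higher in edge than interior spots over the 6 wild-type slices, by 2.02-fold (Ms4a7) to 5.88-fold (Cbr2), where 5.15% of all 14055 genes tested were higher and 1.22% lower (6.37% in all). By the same edgeR test 0 of 10 pan-macrophage genes passed (0 also at an unadjusted p under 0.05), 0 of 8 homeostatic microglia genes (1 unadjusted) and 0 of 6 scar-associated macrophage genes (2 unadjusted). The median log2 difference was 1.86 over the 7 genes, 0.080 over the pan-macrophage genes, -0.012 over the microglia genes and 0.019 over all genes. Tests were edgeR's quasi-likelihood F test on UMIs summed per slice and zone, with the slice as a block and Benjamini-Hochberg adjustment over all genes tested.

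Mrc1, the mannose receptor CD206, stood at 0.205 UMIs per 10000 in edge spots at rest, 0.557 at 2 dpi, 0.214 and 0.812 at 7 dpi, 0.624 and 0.664 at 21 dpi, and 0.851 and 1.24 in the deleter slices. In interior spots it stood at 0.024, 0.252, 0.057 and 0.083, 0.134 and 0.158, and 0.113 and 0.090 in the same order. Edge exceeded interior in all 8 slices, and every slice's counting interval of the ratio lay above 1. The log2 difference over the wild-type slices was 2.29 ± 0.27 (SE, 4.87-fold, edgeR adjusted p = 0.00135). At rest alone, with 14 UMIs at the edge and 38 in the interior, the ratio was 8.46 (95% exact interval 4.24 to 15.98, counting error only).

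The other scavenger and uptake receptors were less alike. Stab1, stabilin-1, which takes up modified lipoproteins and the matrix protein SPARC, read 0.235 at the edge and 0.040 in the interior at rest, 0.587 and 0.370 at 2 dpi, 1.42 and 0.859 in 7 dpi slice 1, 1.61 and 1.13 in 7 dpi slice 2, 0.804 and 0.371 in 21 dpi slice 1, and 1.2 and 0.547 in 21 dpi slice 2. All 8 slices were higher at the edge, but interior tissue after injury carried more Stab1 than the resting edge did. Its log2 difference was 1.02 ± 0.20 (2.03-fold, edgeR adjusted p = 0.0143). Folr2, folate receptor beta, was 1.5 to 5.74 times as high at the edge across the wild-type slices, with a log2 difference of 1.16 ± 0.22 (edgeR adjusted p = 0.0111). Its highest ratio, at rest, rested on 1 edge UMI and 4 interior UMIs (95% exact interval 0.117 to 58.0). The counting interval of the Folr2 ratio lay above 1 in 6 of 8 slices. Cd163, the receptor for haemoglobin bound to haptoglobin, and Lyve1, a hyaluronan receptor also made by lymphatic endothelium, had too few UMIs in these slices (86 and 104) to enter the test. Cd163 was higher at the edge in 8 of 8 slices (0.013 to 0.191 at the edge, 0.00095 to 0.012 in the interior). Lyve1 was higher in 7 of 8, and 21 dpi slice 2 had 0 Lyve1 UMIs in edge spots. Of 4 tested genes of lymphatic endothelium none passed by edgeR, although 3 had an unadjusted p under 0.05. The counting interval of the ratio lay above 1 in 5 of 8 slices for Cd163 and 6 of 8 for Lyve1, and in 21 dpi slice 2 Cd163 rested on 1 UMI in each zone.

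The secreted factors and the enzyme followed Mrc1 in size. Cbr2, a carbonyl reductase, read 0.044 at the edge at rest, 0.135 at 2 dpi, 0.042 and 0.287 at 7 dpi, 0.271 and 0.192 at 21 dpi, and 0.191 and 0.376 in the deleter slices, against 0.0070 to 0.043 in the interior of the 8 slices. Its edge level in 7 dpi slice 1 fell within the interior range, and the other 7 edge levels lay above it. The log2 difference was 2.56 ± 0.35 (5.88-fold, edgeR adjusted p = 0.00244). F13a1, the catalytic subunit of the clot-stabilising transglutaminase factor XIII, read 0.103, 0.361, 0.268 and 0.487, 0.368 and 0.332, and 0.455 and 0.541 at the edge in the same order, against 0.0096 to 0.146 in the interior. Only the resting edge lay within the range of the interior levels, and it was still 10.7 times its own interior (95% exact interval 3.70 to 27.9). The difference was 2.14 ± 0.26 (4.42-fold, edgeR adjusted p = 0.00151). Pf4, platelet factor 4, a chemokine made by platelets and by these macrophages, read 0.073, 0.768, 0.589 and 1.16, 0.376 and 0.574, and 0.558 and 0.685 at the edge, against 0.032 to 0.458 in the interior, with a difference of 1.86 ± 0.19 (3.62-fold, edgeR adjusted p = 0.000922). Pf4 at rest was the slice whose interval did not exclude equality (2.30, 0.715 to 5.73).

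Ms4a7, a membrane protein of the MS4A family found in border macrophages and in monocyte-derived macrophages, showed the smallest edge difference, 1.01 ± 0.17 (2.02-fold, edgeR adjusted p = 0.00804). Its edge levels were 0.015 at rest, 0.105 at 2 dpi, 0.678 and 1.55 at 7 dpi, and 0.691 and 0.638 in the wild-type slices of 21 dpi. Interior spots held 0.0051, 0.047, 0.251 and 0.645, and 0.418 and 0.564 in the same order. The interior of each of these injured slices read above the resting edge, but that edge level rested on 1 UMI. The edge exceeded the interior in all 8 slices, but the counting interval of the ratio lay above 1 in 5 of them and included 1 at rest, at 2 dpi and in 21 dpi slice 2 (1.13). With array positions beyond the capture frame counted as off tissue, 4 of the 7 genes passed, and Folr2 (0.42, edgeR adjusted p = 0.392), Ms4a7 (0.19, edgeR adjusted p = 0.751) and Stab1 (0.33, edgeR adjusted p = 0.406) did not. Without 7 dpi slice 2 Folr2 and Ms4a7 did not pass, without 21 dpi slice 1 Folr2 did not, and without 21 dpi slice 2 Stab1 did not (0.98, edgeR adjusted p = 0.0591).

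**Figure D2:**
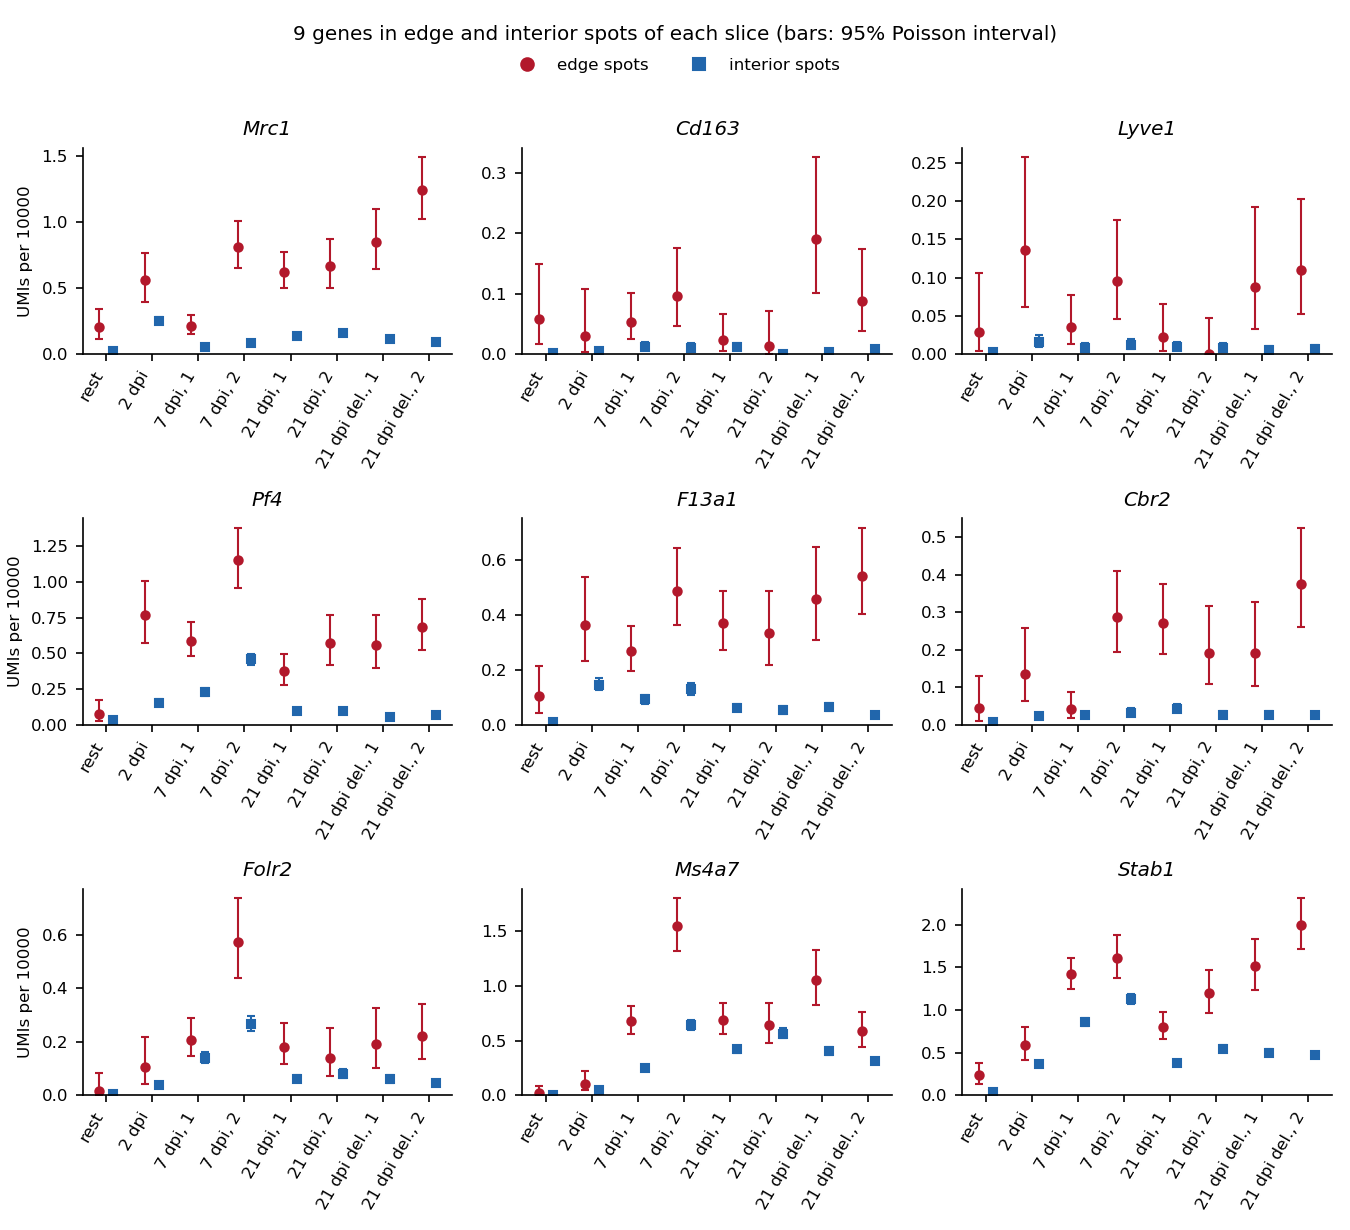
UMIs per 10000 of each of the 9 genes in edge spots (red circles) and interior spots (blue squares) of the 8 slices, with 95% Poisson intervals that cover counting error only; each panel has its own scale from 0. Mrc1 and F13a1 are higher at the edge in every slice, whereas Ms4a7 and Stab1 reach high interior levels after injury.

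Many genes listed as further border macrophage markers, and genes of the meninges, were higher at the edge too. Spots mix cell types, so their UMIs cannot be assigned to one of them. Of 15 further border macrophage genes, 12 were tested and 9 were higher at the edge. Of the 4 with the most UMIs, Maf, a transcription factor (log2 difference 1.18 ± 0.14), Dab2, an endocytic adaptor (1.40 ± 0.25), and Igfbp4, a binding protein of insulin-like growth factors (1.12 ± 0.29), were higher, and Gas6, a ligand of receptors for dying cells, did not pass (0.79 ± 0.28). Clec10a, a galactose-type lectin, had the largest value of the list (2.43 ± 0.44). Cd209f and Cd209g, lectins typical of these macrophages, had only 65 and 22 UMIs in all slices. All 7 meningeal genes and 4 of 5 fibroblast genes were higher at the edge, with median differences of 2.50 and 2.32. So were 3 of 4 blood endothelium genes (median 0.84) and 1 of 5 monocyte genes (median 0.84). Edge spots were also shallower in 7 of 8 slices, with a median of 6088 against 16540 UMIs at rest, 5898 against 15580 in 7 dpi slice 1 and 7080 against 13871 in 21 dpi slice 2, and deeper at 2 dpi (3738 against 2532). The part of these markers and of depth in the edge difference was not tested. Of 12 tested partner genes of the 9, 3 were higher: Sparc, a ligand of stabilin-1 (1.21 ± 0.21), Fn1, a substrate of factor XIII (1.66 ± 0.29), and Blvrb, an enzyme of haem breakdown (0.55 ± 0.12). Csf1r, the receptor these macrophages need, did not pass (0.11 ± 0.10).

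**Figure D3:**
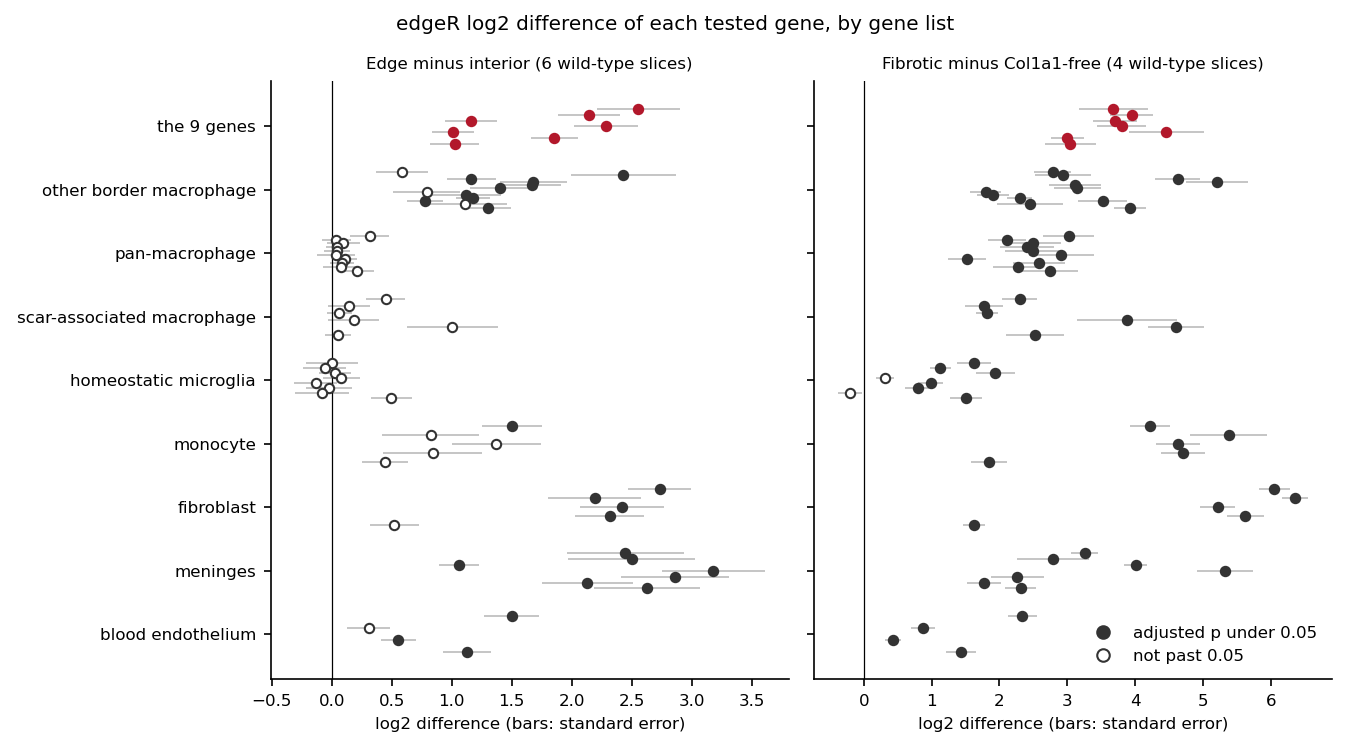
edgeR log2 differences with standard errors for every tested gene of 9 lists, edge minus interior on the left and fibrotic minus Col1a1-free on the right, filled where the adjusted p was under 0.05 and red for the tested ones of the 9 genes. At the edge the red points lie between 1.01 and 2.56 while the pan-macrophage points lie near 0, whereas in fibrotic spots every point of both lists lies above 1.

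Per 100 UMIs of Csf1r, Mrc1 gave 53.9 at the edge and 7.31 in the interior at rest, 61.7 and 31.4 at 2 dpi, 11.0 and 2.70 in 7 dpi slice 1, 34.7 and 3.69 in 7 dpi slice 2, 44.2 and 8.49 in 21 dpi slice 1, and 31.5 and 9.21 in 21 dpi slice 2. The edge ratio to Csf1r was thus higher in each of these 6 slices, and it was lowest in 7 dpi slice 1. The share of a gene's UMIs that lay in edge spots varied between slices, from 10.6% to 45.0% for Mrc1, 17.5% to 42.9% for Cbr2, 11.7% to 37.1% for F13a1, 9.09% to 37.6% for Pf4, 7.82% to 20.5% for Stab1 and 6.90% to 25.5% for Ms4a7. With few UMIs it ran from 14.3% to 76.5% for Cd163. Edge spots were 5.78% to 18.6% of the spots of a slice and held 3.82% to 11.2% of all its UMIs.

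The share of edge spots that were fibrotic was low at rest and at 2 dpi and high later: 3.41% of them at rest, 10.6% at 2 dpi, 41.8% and 81.2% at 7 dpi, and 49.1% and 51.1% at 21 dpi. Among Col1a1-free spots only 3 of the 9 genes could be tested, and none passed, with log2 differences of 0.52 ± 0.57 for Pf4, 0.68 ± 0.53 for Ms4a7 and 0.42 ± 0.39 for Stab1 (edgeR adjusted p = 0.9999 for each, 0 of 3 at an unadjusted p under 0.05 and 0 by DESeq2). Only 0.00868% of the 11527 genes tested passed there. The Col1a1-free edge was small, 7 to 83 spots in the wild-type slices, and held 0 to 10 Mrc1 UMIs in a slice, too few for a test of that gene. Mrc1 read 0.079 in Col1a1-free edge spots at rest, against 0.046 in the next ring of spots, 0.045 in the third and 0.020 from the sixth ring inward. These first 3 rings held only 4, 4 and 6 Mrc1 UMIs. At 2 dpi no such order was seen (0.222, 0.127, 0.198 and 0.238). Nor was it seen in 7 dpi slice 1 (0.055, 0.034, 0.061 and 0.047), 7 dpi slice 2 (0, 0, 0 and 0.020) or 21 dpi slice 1 (0.039, 0.108, 0.136 and 0.023). In 21 dpi slice 2 these readings fell inward (0.190, 0.101, 0.034 and 0.025), on 2, 2 and 1 UMIs in the first 3 rings. Rings 4 to 5, left out of these series, read 0.082 there on 6 UMIs, above the third ring. The full series of 21 dpi slice 2 thus did not keep the order. At rest rings 4 to 5 read 0.029 on 7 UMIs.

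The next comparison asked how the genes lay relative to fibrosis. All 7 genes tested were higher in fibrotic than in Col1a1-free spots over the 4 wild-type slices at 7 and 21 dpi, from 8.002-fold for Pf4 to 22.0-fold for Ms4a7, where 28.8% of 13306 genes were higher and 28.3% lower (57.2% in all). The share of genes called is so large that the count alone says little about these genes. Pan-macrophage genes (10 of 10), scar-associated macrophage genes (6 of 6) and monocyte genes (5 of 5) were higher too, and so were 6 of 8 microglia genes. The median log2 difference was 3.70 over the 7 genes, 2.49 over the pan-macrophage genes, 2.41 over the scar-associated genes and 1.06 over the microglia genes. It was 3.02 over the 12 tested further border macrophage genes, all of them higher. Monocyte genes (4.64) and fibroblast genes (5.625) had larger medians than the 7 genes.

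Ms4a7 read 1.49 and 1.65 UMIs per 10000 in fibrotic spots at 7 dpi and 2.38 and 1.94 at 21 dpi, against 0.156, 0.177, 0.041 and 0.027 in Col1a1-free spots. Fibrotic levels exceeded every Col1a1-free level, and the log2 difference was 4.46 ± 0.55 (edgeR adjusted p = 0.000661). F13a1 read 0.508, 0.355, 0.496 and 0.207 in fibrotic spots and 0.049, 0.031, 0.015 and 0.018 in Col1a1-free spots, a difference of 3.95 ± 0.32 (edgeR adjusted p = 0.000227). Mrc1 read 0.272, 0.346, 0.894 and 0.596 against 0.052, 0.018, 0.037 and 0.048, a difference of 3.80 ± 0.36 (edgeR adjusted p = 0.000301). The remaining tested genes differed by 3.70 ± 0.33 (Folr2), 3.68 ± 0.51 (Cbr2), 3.04 ± 0.38 (Stab1) and 3.0 ± 0.25 (Pf4). Cbr2 held only 13, 4, 7 and 3 UMIs in the Col1a1-free spots of the 4 slices. It passed the filter on low counts only through its fibrotic counts. Mrc1, F13a1, Folr2 and Ms4a7 fell to 7, 6, 3 and 9 UMIs in the Col1a1-free spots of single slices. They too entered the test only with the help of fibrotic counts. The calls of these genes, Cbr2 included, are thus not independent of that filter. Cd163 and Lyve1, not tested with 54 and 41 UMIs, were higher in fibrotic spots in all 6 slices at 7 and 21 dpi, but the counting interval of the ratio lay above 1 in 4 of 6 for each. Of 11 partner genes tested 10 were higher, including Hmox1, the haem-degrading enzyme (2.84 ± 0.45), and Csf1, a ligand of Csf1r (1.88 ± 0.13), whereas Il34, the other ligand, did not pass (-0.53 ± 0.22). In 7 dpi slice 1, 76 of the 112 fibrotic spots were also edge spots, against 69 of 392 in slice 2. At 21 dpi 57 of 170 and 47 of 203 were. Fibrotic spots had medians of 4923.5 and 9206.5 UMIs at 7 dpi, against 16149 and 17361.5 in Col1a1-free spots. At 21 dpi the medians were 10828 and 13879 against 11718 and 11061. With interior spots only, 6 of the 9 genes were tested and all 6 were higher. The part of depth was not tested.

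**Figure D4:**
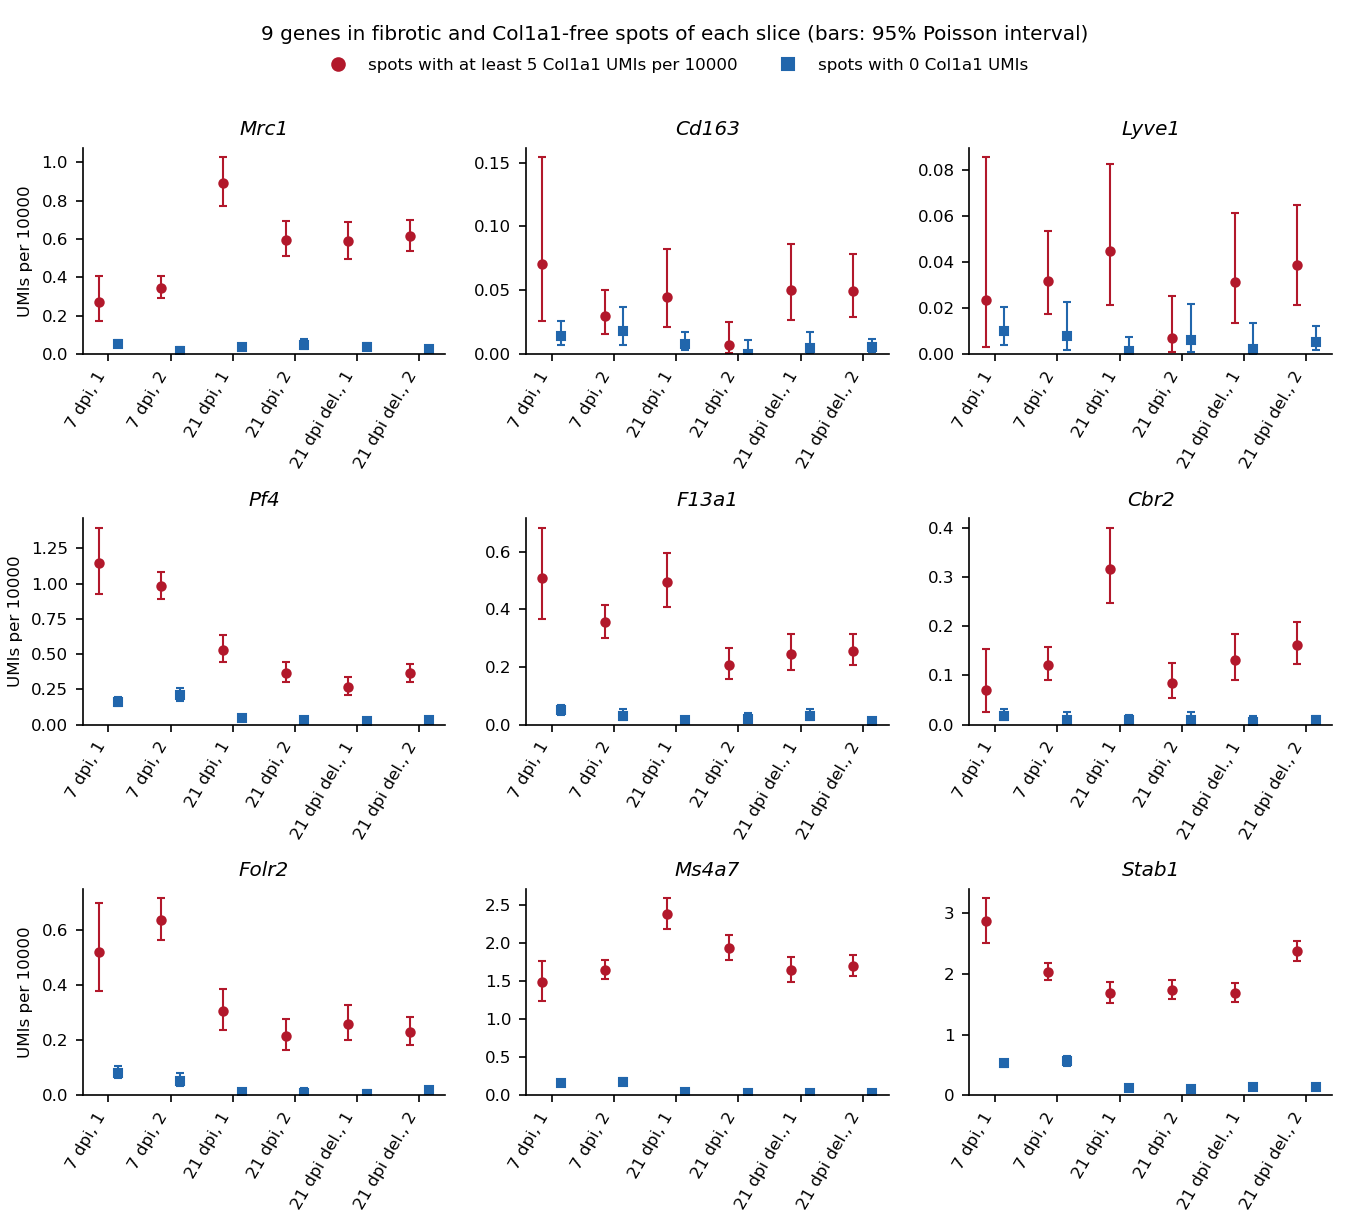
UMIs per 10000 of each of the 9 genes in fibrotic spots (red circles) and Col1a1-free spots (blue squares) of the 6 slices at 7 and 21 dpi, with 95% Poisson intervals that cover counting error only; each panel has its own scale from 0. Pf4 and Folr2 are higher in the fibrotic spots at 7 dpi (Pf4 at 1.15 and 0.983) than in all 4 slices at 21 dpi, and Mrc1 is lower at 7 dpi (0.272 and 0.346) than in all 4.

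Within fibrotic spots, 3 of the 9 genes differed between 7 and 21 dpi, in opposite directions, where 1.89% of 13289 genes were higher at 7 dpi and 2.5% lower (4.39% in all). Pf4 was higher at 7 dpi, at 1.15 and 0.983 UMIs per 10000 against 0.532 and 0.368 at 21 dpi, by 1.25 ± 0.22 log2 (2.39-fold, edgeR adjusted p = 0.00935). Folr2 was also higher, at 0.520 and 0.635 against 0.304 and 0.214, by 1.23 ± 0.21 (2.35-fold, edgeR adjusted p = 0.00882). Mrc1 was lower at 7 dpi by 1.18 ± 0.22 log2 (edgeR adjusted p = 0.0147), and its 7 dpi levels lay below those of all 4 slices at 21 dpi, deleter slices (0.588 and 0.614) included. The other 6 did not pass: Cbr2 (-0.82 ± 0.52), Ms4a7 (-0.42 ± 0.15), F13a1 (0.25 ± 0.35), Lyve1 (0.33 ± 0.73), Stab1 (0.52 ± 0.21) and Cd163 (0.70 ± 0.75). Csf1r (-0.082 ± 0.13) and 9 of 10 pan-macrophage genes did not pass either, whereas 3 of 5 monocyte genes were higher at 7 dpi. Without 7 dpi slice 2 none of the 3 calls held, without 7 dpi slice 1 only 1 of the 9 genes passed, and with the fibrotic threshold lowered to 2 Col1a1 UMIs only 1 did. Fibrotic spots also differed between the slices in depth and in the share lying at the edge. The part of these in the differences between times was not tested.

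In Col1a1-free spots Stab1 read 0.522 and 0.558 at 7 dpi and 0.121 and 0.106 at 21 dpi, Pf4 0.163 and 0.210 against 0.045 and 0.030, and Ms4a7 0.156 and 0.177 against 0.041 and 0.027. The differences of these genes were 2.23, 2.23 and 2.22 on the log2 scale. All of them passed in a fit of Col1a1-free spots that called 2.94% of 15292 genes. Mrc1 read 0.052 and 0.018 against 0.037 and 0.048, with no order. The difference between fibrotic and Col1a1-free spots was smaller at 7 than at 21 dpi for Ms4a7, with a 7 minus 21 dpi value of -2.71 ± 0.23 log2 (edgeR adjusted p = 0.00324), and for Stab1, with -1.73 ± 0.25 (edgeR adjusted p = 0.0107), in a test of the interaction in which 3.22% of all genes were lower and 0.849% higher (4.07% in all). The other 5 tested genes had values from -1.81 (Cbr2) to -1.05 (Mrc1) and did not pass. Of other lists, 9 of 10 pan-macrophage, 5 of 6 scar-associated macrophage and 4 of 12 further border macrophage genes were lower. Without 7 dpi slice 2 neither gene passed (Ms4a7 -2.65, edgeR adjusted p = 0.0885, and Stab1 -1.38, edgeR adjusted p = 0.119).

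Levels were also read by distance from fibrosis. In interior spots of 21 dpi slice 1, Mrc1 read 0.695 in fibrotic spots, 0.169 at 1 step from them, 0.115 at 2 steps and 0.032 at 6 steps or more. In 21 dpi slice 2 it read 0.503, 0.091, 0.037 and 0.050. Pf4 (0.442 to 0.106) and Stab1 (1.68 to 0.631) also fell most at the first step in 21 dpi slice 1. At 7 dpi Mrc1 was low in interior fibrotic spots, at 0.084 in slice 1 (3 UMIs) and 0.190 in slice 2, and at 0.074 and 0.083 at 1 step. Stab1 in 7 dpi slice 1 read 3.197 in fibrotic spots, 3.24 at 1 step, 2.46 at 2, 1.41 at 3, 1.01 at 4 to 5 and 0.311 at 6 steps or more. In 7 dpi slice 2 it dropped at once, from 2.04 to 1.19, and then held 1.27, 1.38 and 0.879 before 0.189. Pf4 at 7 dpi read 0.926, 0.562, 0.649, 0.345, 0.243 and 0.111 in slice 1 and 0.870, 0.439, 0.673, 0.541, 0.336 and 0.022 in slice 2. From 1 to 5 steps both 7 dpi slices lay above 21 dpi slices 1 and 2 for Stab1 and Pf4. F13a1 read 0.281, 0.266, 0.232 and 0.060 over the first 4 distances in slice 1 and 0.296, 0.130, 0.045 and 0.064 in slice 2. Spots along such a profile share a slice, and the profiles were not tested.

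**Figure D5:**
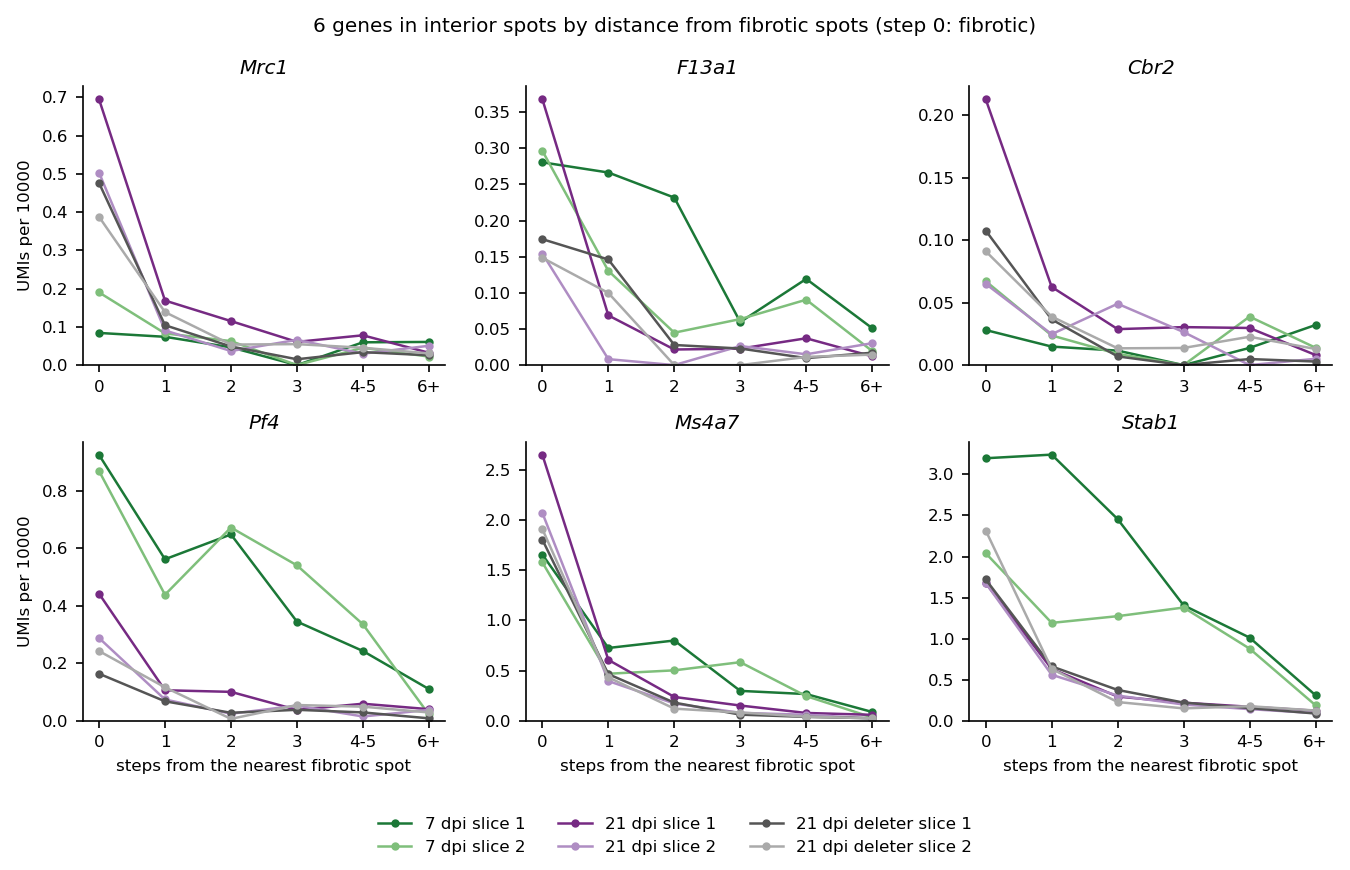
UMIs per 10000 of 6 of the genes in interior spots against the number of steps to the nearest fibrotic spot (step 0 is fibrotic), 1 line per slice at 7 and 21 dpi; each panel has its own scale from 0. At 21 dpi Mrc1, Pf4 and Stab1 drop within 1 step (Mrc1 0.695 to 0.169 in slice 1), and the 7 dpi lines, in green, of Pf4 and Stab1 lie above those of 21 dpi over the next steps.

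Rest and 2 dpi had 1 slice each and so no test. The 95% intervals of their ratios cover counting error only, and the share of all genes with such an interval above 1 was not counted. Over whole slices F13a1 went from 22 to 205 UMIs and from 0.013 to 0.157 per 10000, a ratio of 11.6 (95% exact interval 7.48 to 19.0). Mrc1 went from 0.032 to 0.267 (8.41, 6.27 to 11.5), Stab1 from 0.048 to 0.381 (7.99, 6.29 to 10.3) and Pf4 from 0.034 to 0.186 (5.52, 4.11 to 7.54). The ratios of Folr2 (12.99), Ms4a7 (9.02), Lyve1 (6.04) and Cbr2 (3.21) rest on 5 to 14 resting UMIs. Cd163, with 7 and 8 UMIs, gave 1.43 (0.452 to 4.63). Other lists were higher at 2 dpi as well over whole slices: pan-macrophage genes summed to 3.49 at rest and 14.1 at 2 dpi, scar-associated macrophage genes to 5.41 and 18.3, monocyte genes to 0.096 and 0.5003, microglia genes to 2.58 and 5.02, and fibroblast genes to 0.421 and 1.23, and their part in the members' values was not tested. In interior spots the ratio was 10.4 (7.40 to 15.0) for Mrc1 and 15.2 (8.99 to 27.8) for F13a1, while at the edge it was 2.71 (1.43 to 5.43) and 3.52 (1.47 to 9.67).

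Depth split the genes at 2 dpi. In the 636 spots with 1000 to 5000 UMIs Pf4 read 0.845 per 10000 (95% Poisson interval 0.695 to 1.02) and in the 715 deeper spots 0.107 (0.0894 to 0.128). F13a1 went the same way (0.487 against 0.117), as did Ms4a7 (0.175 against 0.036) and Stab1 (0.754 against 0.340). Mrc1 ran the other way, at 0.152 (0.0930 to 0.235) against 0.283 (0.253 to 0.315). Choroid plexus spots differed at 2 dpi, where 113 spots of the slice held at least 5 UMIs of Folr1, Kl and Clic6. Mrc1 read 0.389 there against 0.211 in the interior Col1a1-free spots outside this set, which was still above the 0.025 of such interior spots at rest. Pf4 read 0.039 in the choroid plexus spots against 0.179 in those interior spots. The choroid plexus spots themselves could lie at the edge or hold Col1a1. They were picked by a count of UMIs not scaled to depth, which favours deep spots. Deeper spots at 2 dpi also had more Mrc1 and less Pf4, as given above. The part of position, Col1a1 and depth in the contrasts was not tested. The other slices with over 50 choroid plexus spots did not all go the same way. On 6 to 25 UMIs Mrc1 read 0.049 there against 0.057 in 7 dpi slice 1, 0.152 against 0.035 in 21 dpi slice 1 and 0.051 against 0.027 in deleter slice 2, and Pf4 read 0.259 against 0.166, 0.079 against 0.045 and 0.085 against 0.026. The 5 platelet genes summed to 0.054 UMIs per 10000 at rest, 0.102 at 2 dpi and 0.068 to 0.085 later, with 33 UMIs of Ppbp and 33 of Treml1 in all, and neither of the 2 platelet genes tested passed at the edge.

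Over whole slices none of the 9 genes passed between 7 and 21 dpi by edgeR, where 0.00603% of 16580 genes did, although 5 of the 9 had an unadjusted p under 0.05 and DESeq2 called 3, Pf4, Folr2 and Stab1, where it called 1.66% of all genes. Macrophage genes at large had similar values: 10 of 10 pan-macrophage and 8 of 8 microglia genes had an unadjusted p under 0.05 (edgeR called none of them), with median log2 differences of 0.79 and 0.83 against 0.78 over the 9 genes. Pf4 stood at 0.267 and 0.512 at 7 dpi and 0.120 and 0.131 at 21 dpi, a log2 difference of 1.66 ± 0.31 (edgeR adjusted p = 0.153). Stab1 stood at 0.922 and 1.17 against 0.404 and 0.592 (1.09 ± 0.20, edgeR adjusted p = 0.149) and Folr2 at 0.147 and 0.290 against 0.071 and 0.083 (1.53 ± 0.35, edgeR adjusted p = 0.206). Mrc1 ran the other way, at 0.075 and 0.140 against 0.172 and 0.193 (-0.75 ± 0.29, edgeR adjusted p = 0.379). Ms4a7 stood at 0.298 and 0.715 against 0.439 and 0.569 (0.031 ± 0.40).

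The last comparison set the deleter slices beside the wild-type slices at 21 dpi. None of the 9 genes passed by edgeR or by DESeq2, none had an unadjusted p under 0.05, and edgeR called 0% of 16580 genes. The log2 differences ran from -0.49 ± 0.32 (Pf4) to 0.83 ± 0.68 (Cd163). The standard errors ran from 0.20 (Stab1) to 0.68 (Cd163), and they are not a limit of detection. Pf4 and Cd163 differed by more than their own standard errors and did not pass. With 2 slices a group, differences larger than the standard errors can thus have been missed. The genotypes also differed in capture area and in Xist, with 1033 and 19 UMIs in the deleter slices against 4 and 1 in wild type. The part of these was not tested.

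Over the 16 edge and interior sums of the 8 slices, the 9 genes varied together to different degrees, as log2 of UMIs per 10000 plus 0.01. Mrc1 was closest to Cbr2 (Pearson's r = 0.93) and F13a1 (0.92), Folr2 to Stab1 (0.93) and Pf4 to F13a1 (0.92). Ms4a7 was near Folr2 (0.88) and Stab1 (0.86) but not near Mrc1 (0.48) or Lyve1 (0.22). Among 14144 other genes with at least 200 UMIs, those whose pattern was most like the sum of the 9 were P4hb (0.97), Itpripl2 (0.97), B4galt1 (0.97), Ripk1 (0.97), Itgb1 (0.97), Rhoc (0.97), Dab2 (0.97), Hacd4 (0.97), Myh9 (0.97) and Flna (0.96). The sums share slices and differ in depth, so these values are descriptions. Of these 10 genes, Dab2 is on the list of further border macrophage genes, and Itgb1, Myh9 and Flna serve adhesion and the cytoskeleton in many cell types.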

How the data were processed

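Per the labels and the study's methods, fresh-frozen brain slices were run on Visium, and Space Ranger 2.0.0 with mm10 made the deposited unique molecular identifier (UMI) counts per gene and spot. The matrices hold raw counts for 32285 genes in 9340 spots over tissue. Each capture area was divided into 2 connected pieces of tissue, 1 slice each, with slice numbers that carry no pairing, and the rest and 2 dpi slices were told apart by size.

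UMIs were summed per slice and zone. Sums were tested with edgeR 4.0.16 (R 4.3.3; filterByExpr, TMM, quasi-likelihood F test, slice as a block between zones, Benjamini-Hochberg over all genes tested, threshold 0.05). All slices entered the fits between times and genotypes over whole slices and the fit between times in Col1a1-free spots. The fit between times in fibrotic spots left out rest and 2 dpi, and the interaction left out the deleter slices as well. DESeq2 1.42.0 was an alternative, and the code was tested on simulated data. Rest and 2 dpi have 1 slice each, so only 95% exact intervals are given, which cover counting error only. The members and lists were chosen with earlier results of these data known. All 9 members are named, list genes with the most UMIs, and the 10 genes most like the summed members. Clec10a, Blvrb, Hmox1, Il34, Cd209f, Cd209g, Ppbp, Treml1, Flt4, Pdpn and Prox1 were named after their values were seen. Alternatives covered filters, normalization, thresholds, edge definition and each slice left out.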

Additional observations from a re-analysis of the deposited data

Results flagged for a closer look

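For 2 of the 7 tested genes the difference between fibrotic and Col1a1-free spots was itself different between 7 and 21 dpi by edgeR's test of the interaction. A smaller difference at 7 dpi was also called for 9 of 10 pan-macrophage, 5 of 6 scar-associated macrophage and 4 of 12 further border macrophage genes. For Ms4a7 the log2 difference at 7 dpi minus that at 21 dpi was -2.71, and for Stab1 it was -1.73. Both rest on 2 slices at each time, which also differ in capture area and in sex-linked genes, and neither passed without 7 dpi slice 2.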

How the results depend on the processing

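No paired analysis was possible because slice numbers are names only, so times and genotypes could not be paired; zones were compared within each slice, with the slice as a block. All 7 tested genes stayed higher in fibrotic spots wherever they were tested. At the edge 4 of 7 passed with positions beyond the capture frame as off tissue, and 5 to 8 when single slices were left out. Between 7 and 21 dpi over whole slices 3 genes passed without the filter, 3 by DESeq2, 3 in Col1a1-free spots, and 0 to 1 with single slices left out. In fibrotic spots 1 passed with at least 2 Col1a1 UMIs per 10000, and 0 to 4 with single slices left out; in the interaction 0 to 2 passed with single slices left out, and 3, with Pf4 added, without the filter (-1.03), with the deleter slices added (-0.98) and with at least 10 Col1a1 UMIs per 10000 (-1.44). Values that changed sign were Ms4a7 at the Col1a1-free edge with the frame (-0.27), Cbr2 over whole slices in Col1a1-free spots (0.69) and F13a1 in fibrotic spots with at least 10 Col1a1 UMIs per 10000 (-0.19). With single slices left out, signs also changed for Pf4 at the Col1a1-free edge (-0.21 to 1.04), Mrc1 in the interaction (-1.77 to 0.044), Cbr2 (-0.88 to 0.11) and Ms4a7 (-0.75 to 0.54) over whole slices, Cbr2 (-1.55 to 0.36), Cd163 (-0.23 to 2.38), Lyve1 (-0.58 to 2.03) and F13a1 (-0.31 to 0.95) in fibrotic spots, and F13a1 (-0.41 to 0.17), Cbr2 (-0.63 to 0.090), Stab1 (-0.049 to 0.48) and Lyve1 (-0.022 to 0.62) between genotypes; the cause was not tested. Over all genes the number called ran from 113 to 3252 at the edge (896 in the main setting), 0 to 24 at the Col1a1-free edge (1), 0 to 1433 in the interaction (542), 0 to 476 over whole slices (1), 160 to 1317 in fibrotic spots between times (583) and 0 to 10 between genotypes (0). Leaving out choroid plexus spots was chosen after seeing the data and lost no call. Cd163 and Lyve1 are limited by their depth of 132 and 142 UMIs.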
